A study of Mus musculus with 16 samples.

Results

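The cortical expression of 8 genes of the endocannabinoid system was examined in mouse pups at P7. They are the receptor genes Cnr1 and Cnr2 and the enzyme genes Napepld, Faah, Dagla, Daglb, Mgll and Abhd6, chosen as the entries with these names among the 36930 entries of the deposited expression table. All 8 were found with 1 entry each, and all 8 passed the filter on low values, which kept 21183 genes.

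Endocannabinoids are lipid messengers that neurons make on demand from membrane phospholipids and that mostly act backwards across the synapse, from the postsynaptic cell onto receptors of the presynaptic terminal. The best known are anandamide and 2-arachidonoylglycerol (2-AG). CB1 receptors, which couple to Gi/o proteins and lower transmitter release, are the main receptor of neurons, whereas CB2 receptors are mostly known from immune cells. Anandamide can be released from its precursor by NAPE-PLD and is hydrolyzed by FAAH, while 2-AG is made by the diacylglycerol lipases alpha and beta and hydrolyzed mainly by monoacylglycerol lipase, with a smaller part taken by ABHD6. In the developing cortex, CB1 signaling is also known for its part in axon growth.

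RNAseq was done with 8 Avil-ChR2 and 8 ChR2-flfl cortices on a C57BL6 background. All 16 pups carried the floxed Rosa26 transgene for a fusion of channelrhodopsin-2 with td-Tomato behind a STOP cassette, and all spent 1 h per day under blue light on P1 through P5 and were killed at P7. Avil-ChR2 pups also carried Advillin-Cre, whose promoter was assumed by the study to be active mostly in peripheral nociceptive neurons at this age, although other cells may also have been light sensitive, and ChR2-flfl pups were litter mates without Cre. The comparison therefore asks whether blue light on Cre-positive cells, meant to be nociceptors, went along with other levels of these genes in the cortex. All 16 pups had the light in the first days of life. Effects of the light and of carrying Advillin-Cre or ChR2 itself therefore cannot be told apart. The labels do not give the litter of each pup, and ChR2 itself was not measured in the table as used here.

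The genotype labels were checked with Avil, which lay between 0.825 and 1.46 CPM (reads scaled to the library total, with TMM factors) in ChR2-flfl and between 37.3 and 46.4 CPM in Avil-ChR2 pups. For 1 pup the labelled sex went against the data. Avil-ChR2 replicate 4 is labelled female, but the Y-linked gene Ddx3y was at 54.7 CPM in it, where the other 8 pups labelled female had at most 2.57 CPM and the pups labelled male at least 50.7 CPM. The female marker Xist was listed at 0 in 7 of these 8 pups and at 571 CPM in Avil-ChR2 replicate 3. Xist lies within the entry of Tsix on the other strand, and the summed level of both entries was between 719 and 932 CPM in the 8 pups, at most 0.660 CPM in the pups labelled male and 0.523 CPM in Avil-ChR2 replicate 4. The Additional file of the study lists this pup as male. Sex differences and the interaction of genotype with sex are therefore given with both sources and without this pup. Sex as a covariate of the genotype comparison is given with both sources. The markers of cortical tissue were present, with 488 CPM for Slc17a7, the vesicular glutamate transporter of cortical excitatory neurons, and 100.6 CPM for Gad1, the GABA-synthesizing enzyme. The depth was 30549126 reads in ChR2-flfl replicate 3 and between 47791532 and 48711134 reads in the other 15 pups.

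The levels of the 8 genes differed widely. Per kb of the longest annotated transcript, Cnr1 had the highest level, with 39.2 ± 2.68 CPM per kb (SD, n = 8) in ChR2-flfl and 37.8 ± 2.58 CPM per kb in Avil-ChR2 cortices, which is above 91.1% of the tested genes with an annotated length. Mgll followed with 22.8 ± 2.38 CPM per kb in ChR2-flfl, then Dagla with 16.3 ± 1.22, Abhd6 with 14.4 ± 1.06 and Faah with 12.3 ± 0.503 CPM per kb. Daglb was at 4.84 ± 0.169 and Napepld at 1.97 ± 0.164 CPM per kb. Cnr2 was the lowest, with 0.116 ± 0.0318 CPM per kb in ChR2-flfl and 0.104 ± 0.0244 CPM per kb in Avil-ChR2, above 9.01% of the genes. In this order the ranges over the 16 pups overlapped between Dagla and Abhd6 and between Abhd6 and Faah, and the ranges of all other neighbors were separate. The order depends in part on the transcript length used. With the mean length of all annotated transcripts, Cnr1 at 55.3 and Mgll at 50.9 CPM per kb stayed at the top, but Faah at 29.1 CPM per kb came before Dagla at 23.2 and Abhd6 at 17.3 CPM per kb.

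**Figure D1:**
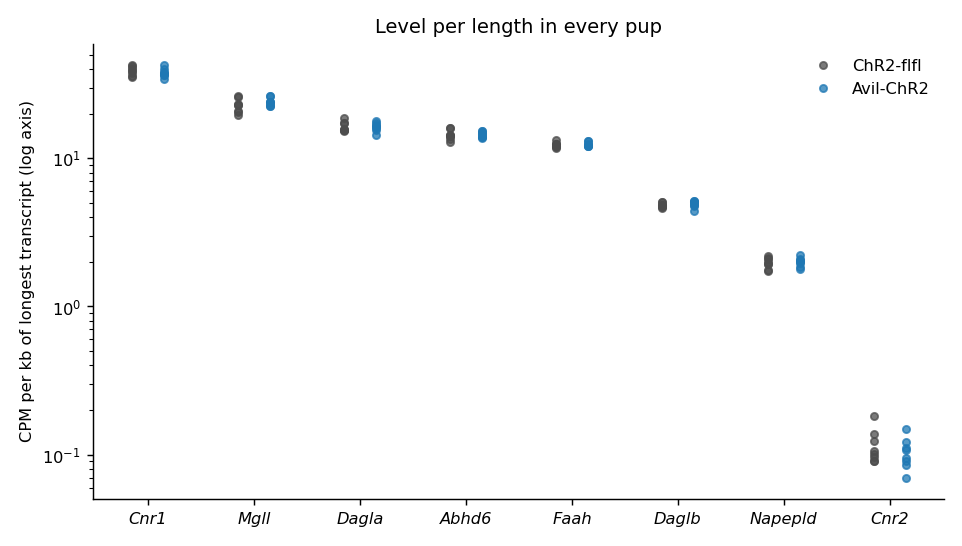
Level of each gene in every pup as CPM per kb of the longest transcript, on a log axis, with ChR2-flfl pups in gray and Avil-ChR2 pups in blue. Cnr1 lies at the top in all 16 pups and Cnr2 at the bottom, and the ranges of the genotypes overlap for each gene.

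Within each pair with the same role, 1 gene had the higher level in all 16 pups. The level of Cnr1 per length was 353 ± 78.5 times that of Cnr2 in ChR2-flfl and 380 ± 80.9 times in Avil-ChR2. Dagla, the lipase that makes most of the 2-AG used for synaptic signaling, was 3.38 ± 0.265 times above Daglb in ChR2-flfl and 3.31 ± 0.121 times in Avil-ChR2. Mgll was 1.58 ± 0.0906 times above Abhd6 in ChR2-flfl and 1.67 ± 0.0805 times in Avil-ChR2. On the anandamide branch, the hydrolase Faah was 6.29 ± 0.636 times above the synthase Napepld in ChR2-flfl and 6.25 ± 0.5264 times in Avil-ChR2. The size of these ratios depends on the transcript length used. With the mean transcript length, Faah was 14.4 times above Napepld, which was at 2.03 CPM per kb, and Mgll 2.95 times above Abhd6 in ChR2-flfl, whereas Dagla was 3.16 times above Daglb and Cnr1 493 times above Cnr2. The ratios describe mRNA per length and not enzyme activity.

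The start regions are shown for the genes with the highest and the lowest level, Cnr1 and Cnr2, and for Mgll and Abhd6. This last pair had the highest Pearson r among the pairs of the 8 genes, as described further on. Each region shown has 250 bases before and 50 bases after the start, read on the plus strand, with each CG in capitals. Of the RefSeq start regions found for a gene in GRCm38.p6, the most upstream one is shown. The regions lie at chr4:33924014-33924313 for Cnr1, chr4:135894939-135895238 for Cnr2, chr6:88724162-88724461 for Mgll and chr14:8002638-8002937 for Abhd6. That of Cnr1 lies wholly within the entry of the gene, which begins at 33923844.
Cnr1: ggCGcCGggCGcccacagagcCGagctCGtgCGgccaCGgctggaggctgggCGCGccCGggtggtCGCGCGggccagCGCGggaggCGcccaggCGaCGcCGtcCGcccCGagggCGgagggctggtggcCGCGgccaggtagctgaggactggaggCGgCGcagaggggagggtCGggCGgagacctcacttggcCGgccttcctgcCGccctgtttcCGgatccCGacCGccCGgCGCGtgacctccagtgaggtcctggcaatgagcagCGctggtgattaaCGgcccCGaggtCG
Cnr2: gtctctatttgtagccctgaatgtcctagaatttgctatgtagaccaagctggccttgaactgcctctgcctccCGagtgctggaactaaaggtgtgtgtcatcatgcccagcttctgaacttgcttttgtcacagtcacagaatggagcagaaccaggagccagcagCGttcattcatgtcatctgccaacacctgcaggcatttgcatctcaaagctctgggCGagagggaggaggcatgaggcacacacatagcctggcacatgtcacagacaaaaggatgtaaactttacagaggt
Mgll: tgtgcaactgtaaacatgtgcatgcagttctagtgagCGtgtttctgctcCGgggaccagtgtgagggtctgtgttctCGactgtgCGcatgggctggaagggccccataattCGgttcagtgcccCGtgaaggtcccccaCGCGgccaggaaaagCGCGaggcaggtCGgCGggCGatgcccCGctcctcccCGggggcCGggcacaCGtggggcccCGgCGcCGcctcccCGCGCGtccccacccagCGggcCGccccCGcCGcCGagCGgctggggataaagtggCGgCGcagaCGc
Abhd6: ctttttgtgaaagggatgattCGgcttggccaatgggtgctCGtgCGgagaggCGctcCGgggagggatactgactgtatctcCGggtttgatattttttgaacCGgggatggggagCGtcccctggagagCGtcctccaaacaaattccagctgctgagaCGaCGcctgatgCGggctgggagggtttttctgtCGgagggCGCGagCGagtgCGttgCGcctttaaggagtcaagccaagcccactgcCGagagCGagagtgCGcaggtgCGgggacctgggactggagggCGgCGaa
The Cnr1 region holds 40 CG pairs and the Mgll region 32, more than 96.1% and 90.5% of 32851 RefSeq start regions of this length. The Abhd6 region holds 24, more than 80.0% of the regions, and the Cnr2 region 3, more than 23.3% of them, while the median region has 7. Among the regions not shown, those of Cnr1 hold 33 and 5 CG pairs and that of Napepld, a gene with a low level, holds 28. RefSeq start regions were found for 7 of the 8 genes, 12 in all. The letters TATAAA, searched on both strands, are in 0 of these 12 and in 13.6% of all regions. These counts describe the sequence only, since binding or methylation was not measured.

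The comparison of the genotypes called none of the 8 genes. At an adjusted p under 0.05, 2 of the 21183 genes (0.00944%) differed between Avil-ChR2 and ChR2-flfl cortices by limma with Benjamini-Hochberg adjustment, namely Avil and Mars, and neither belongs to the endocannabinoid genes. At an unadjusted p under 0.05 there were 1145 genes (5.41%), 413 higher and 732 lower in Avil-ChR2, and again 0 of the 8. Of the 8 genes, 5 had a higher and 3 a lower mean log2 value in Avil-ChR2, compared with 10885 and 10298 of all genes tested. The median difference was 0.0089 and the median absolute difference 0.024 on the log2 scale, compared with 0.0020 and 0.051 over all genes tested. For each of the 8 genes the ranges of the genotypes overlapped. How many of all genes overlap in this way was not counted, so the overlap does not set the 8 apart. In a bulk tissue, fewer cells of a type and less RNA per cell cannot be told apart.

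Cnr1, the CB1 receptor gene (chr4:33923844-33948831, plus strand, GRCm38), had its lowest, median and highest value at 207, 228 and 247 CPM in ChR2-flfl and at 199, 217 and 249 CPM in Avil-ChR2 pups. Both the lowest and the highest of the 16 values came from Avil-ChR2 pups, and the ChR2-flfl mean was exceeded by 2 of the 8 Avil-ChR2 values. The means were 227 ± 15.6 and 220 ± 14.97 CPM (SD), and the log2 difference of -0.050 ± 0.045 (SE) had a 95% interval from -9.43% to 3.03% relative to ChR2-flfl (adjusted p = 0.954 by limma, exact permutation p = 0.318). In pups 26 to 33, the first of the 2 runs of pup numbers, with 4 pups per genotype in each, the log2 difference was -0.096, and in pups 35 to 42 it was -0.0044. The sign changed, to 0.0038 ± 0.044 (SE), with the slope of each library on genomic span as a covariate, a property of the libraries that is described further on.

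Cnr2, the CB2 receptor gene (chr4:135895404-135920215, plus strand), rested on 12 to 34 reads per pup, so that counting error alone is large. Its lowest, median and highest value was 0.352, 0.400 and 0.710 CPM in ChR2-flfl and 0.268, 0.393 and 0.574 CPM in Avil-ChR2 pups. The highest value, in ChR2-flfl replicate 4, was 2.65 times the lowest. The log2 difference of -0.16 ± 0.19 (SE) had a 95% interval from -31.6% to 17.2% (adjusted p = 0.971 by limma). Pups 26 to 33 gave -0.39 and pups 35 to 42 gave 0.071, so that the direction was not the same in both. The SE of 0.19 was the largest among the 8 genes, with that of Napepld next at 0.059. Each difference seen in the other genes was smaller than the SE of Cnr2. Which size could be detected at this depth was not tested.

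Napepld (chr5:21662901-21702153, minus strand), the enzyme that releases anandamide and other N-acylethanolamines, was at 6.89, 7.78 and 8.70 CPM (lowest, median, highest) in ChR2-flfl and at 7.03, 7.94 and 8.81 CPM in Avil-ChR2 pups. The genotypes covered nearly the same range, with a log2 difference of 0.024 ± 0.059 (SE) and a 95% interval from -6.60% to 10.7% (adjusted p = 0.987 by limma). Faah (chr4:115996656-116017902, minus strand), the anandamide hydrolase, was the steadiest of the 8, with a coefficient of variation of 3.60% over the 16 pups. Its values were 64.8, 67.8 and 73.7 CPM in ChR2-flfl and 66.6, 68.4 and 72.3 CPM in Avil-ChR2 pups. All 8 Avil-ChR2 pups lay within the range of ChR2-flfl, and the log2 difference was 0.017 ± 0.029 (SE), with a 95% interval from -2.90% to 5.50% (adjusted p = 0.985 by limma).

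Dagla (chr19:10245265-10304962, minus strand) was at 85.8, 88.2 and 105 CPM (lowest, median, highest) in ChR2-flfl and at 81.2, 92.3 and 99.8 CPM in Avil-ChR2 pups. The ChR2-flfl values fell into 3 pups between 97.0 and 105 CPM and 5 pups between 85.8 and 88.9 CPM, while the Avil-ChR2 values were spread from 81.2 to 99.8 CPM without such a gap. The log2 difference of -0.0027 ± 0.045 (SE) had a 95% interval from -6.53% to 6.59% (adjusted p = 0.998 by limma). Daglb (chr5:143464487-143504442, plus strand), the lipase also known from microglia and macrophages, was at 22.4, 23.5 and 24.8 CPM in ChR2-flfl and at 21.6, 24.4 and 25.2 CPM in Avil-ChR2 pups. The ranges overlapped widely, with the lowest and the highest value both from Avil-ChR2 pups, and the log2 difference was 0.024 ± 0.035 (SE), with a 95% interval from -3.42% to 7.00% (adjusted p = 0.982 by limma).

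Mgll (chr6:88724412-88828360, plus strand), which encodes monoacylglycerol lipase, had the smallest p of the 8. Its values were 78.6, 91.1 and 105 CPM (lowest, median, highest) in ChR2-flfl and 89.4, 95.3 and 105 CPM in Avil-ChR2 pups. The 3 lowest values were from ChR2-flfl pups, whereas the upper ends of the genotypes were alike, and the ChR2-flfl mean was exceeded by 6 of the 8 Avil-ChR2 values. The means were 91.1 ± 9.50 and 95.9 ± 6.03 CPM (SD), and the log2 difference of 0.080 ± 0.055 (SE) had a 95% interval from -2.39% to 14.4% (adjusted p = 0.945 and unadjusted p = 0.162 by limma, exact permutation p = 0.211). Pups 26 to 33 gave a difference of 0.053 and pups 35 to 42 one of 0.11. Without ChR2-flfl replicate 5, which has the highest Mgll value of its genotype, it was 0.11 with an unadjusted p of 0.0471 and an adjusted p of 0.673 by limma. Without ChR2-flfl replicate 1, which has the lowest Mgll value, it was 0.050 with an unadjusted p of 0.343 by limma. With the slope on genomic span as a covariate it was lower than in any of these, 0.013 ± 0.054 (SE) with an unadjusted p of 0.818 by limma.

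Abhd6 (chr14:8002807-8056773, plus strand), a membrane-bound hydrolase that can remove 2-AG on the postsynaptic side, was at 28.7, 31.7 and 35.6 CPM in ChR2-flfl and at 30.4, 32.1 and 33.9 CPM in Avil-ChR2 pups. All 8 Avil-ChR2 pups lay within the range of ChR2-flfl. The log2 difference was 0.00043 ± 0.042 (SE), with a 95% interval from -5.88% to 6.32% (adjusted p = 1.00 by limma). Mgll and Abhd6 each overlap 2 antisense entries of the table and Dagla 1, of which the highest, within Mgll, had a mean of 0.553 CPM. The other 5 genes overlap no entry.

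**Figure D2:**
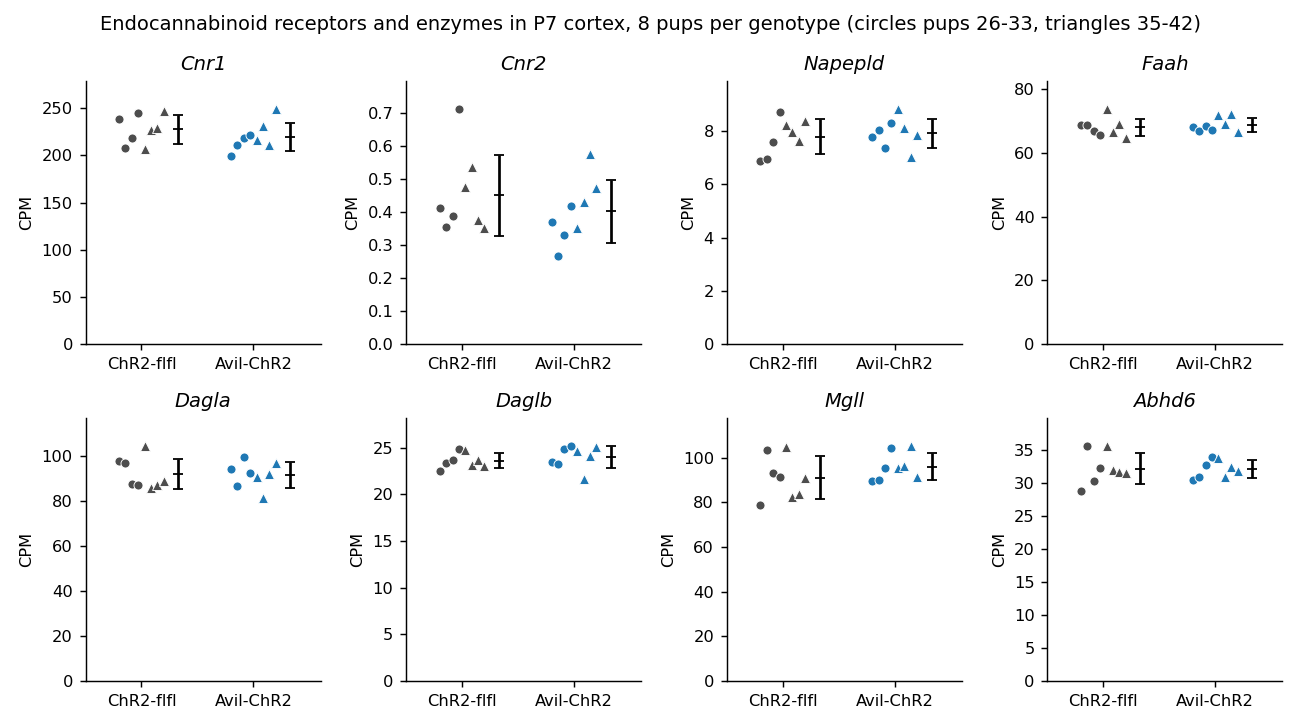
CPM of each gene in every pup (circles pups 26 to 33, triangles pups 35 to 42), with the mean and SD beside the points, for ChR2-flfl in gray and Avil-ChR2 in blue, each axis starting at 0. The genotypes overlap in every panel, and the spread is widest in relation to the mean for Cnr2, which rests on 12 to 34 reads per pup.

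The log2 ratio of synthesis to hydrolysis was calculated per pup as a description of the balance of the 2 branches at the mRNA level. For Dagla to Mgll it was 0.019 ± 0.13 (SD) in ChR2-flfl and -0.063 ± 0.13 in Avil-ChR2, a difference of -0.082 that is smaller than either SD. It was between -0.10 and -0.040 with 1 pup left out, the latter without ChR2-flfl replicate 1. For Napepld to Faah it was -3.13 ± 0.15 in ChR2-flfl and -3.12 ± 0.12 in Avil-ChR2. The ranges of the genotypes overlapped for both ratios.

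The sex of the pups was compared in the same way. With the sex of the labels, 9 of 21183 genes (0.0425%) differed between males and females at an adjusted p under 0.05 by limma, with the sex of the Additional file 11 of 21183, and without Avil-ChR2 replicate 4 10 of 20894, and 0 of the 8 were among them in each case. Daglb had the smallest p among the 8 with the labels, and its log2 difference, male minus female, was -0.054 ± 0.035 (SE). It was -0.035 ± 0.036 with the Additional file and -0.048 ± 0.036 without the pup. With the Additional file, Faah had the smallest p, with a log2 difference of 0.030 ± 0.029 (SE). The interaction of genotype with sex called 0 genes (0%) of 21183 at an adjusted p under 0.05 and 912 at an unadjusted p under 0.05 by limma with the labels, 0 and 1320 with the Additional file, and 0 and 979 of 20894 without the pup. Cnr2 and Dagla had the smallest p among the 8. The interaction of Cnr2 was 0.57 ± 0.37 (SE) with the labels, 0.60 ± 0.37 with the Additional file and 0.62 ± 0.39 without the pup, and that of Dagla -0.15 ± 0.091, -0.14 ± 0.090 and -0.15 ± 0.096. The adjusted p of both were at least 0.862 by limma. None of the 8 genes had an unadjusted p under 0.05 for sex or for the interaction in any of these fits. Over all genes the share with such a p was 4.46% for sex and 4.31% for the interaction with the labels, 3.46% and 6.23% with the Additional file, and 3.78% and 4.69% without the pup, so that 0 of 8 is near the background.

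A wider list of 32 genes of the endocannabinoid pathway was examined in the same fit, and 28 of them passed the filter. None differed at an adjusted p under 0.05. Of the 28, 17 had a higher mean log2 value in Avil-ChR2, compared with 10885 of the 21183 genes tested. At an unadjusted p under 0.05 there were 2 (7.14%, compared with 5.41% of all genes), 1 in each direction. Both are enzymes of N-acylethanolamine synthesis. Pla2g4e, a calcium-dependent N-acyltransferase that makes the precursor of anandamide, was at 75.9, 81.8 and 95.4 CPM (lowest, median, highest) in ChR2-flfl and at 72.5, 78.9 and 80.6 CPM in Avil-ChR2 pups, and its log2 difference was -0.11 ± 0.044 (SE; unadjusted p = 0.0243, adjusted p = 0.849 by limma). Plaat1, a calcium-independent acyltransferase listed under its older name Hrasls, was at 7.09, 8.02 and 9.22 CPM in ChR2-flfl and at 8.29, 8.73 and 10.005 CPM in Avil-ChR2 pups, with a log2 difference of 0.14 ± 0.058 (SE; unadjusted p = 0.0212, adjusted p = 0.849 by limma). The ranges overlapped for both genes.

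Among the pathway genes with a mean of at least 1 CPM, the absolute differences were largest for Plaat3 with 0.20 ± 0.13 (SE), the receptor gene Gpr55 with -0.17 ± 0.10, and Plaat1. The most abundant gene of each group differed little. Gnao1, which encodes the Go alpha subunit to which CB1 couples, was at 1144 ± 28.0 CPM (SD) in ChR2-flfl and 1157 ± 22.8 CPM in Avil-ChR2. Cnrip1, which encodes a protein that binds the CB1 tail, was at 143 ± 6.95 and 144 ± 6.68 CPM. Plcb1, a phospholipase C that supplies diacylglycerol, was at 319 ± 13.5 and 316 ± 16.8 CPM, and all 4 Plcb genes had a slightly lower mean in Avil-ChR2, with a median log2 difference of -0.019 and 0 past the unadjusted threshold. Abhd12, a further 2-AG hydrolase, was at 129 ± 6.20 and 131 ± 3.19 CPM, and Fabp7, a fatty acid-binding protein of glial progenitors, at 356 ± 24.5 and 357 ± 20.4 CPM. Gde1, which takes part in a second route to anandamide, was at 173 ± 8.48 and 177 ± 5.54 CPM, Ppara, a nuclear receptor for N-acylethanolamines, at 2.996 ± 0.224 and 3.01 ± 0.213 CPM, and the lipoxygenase gene Alox15 at 2.81 ± 0.443 and 2.88 ± 0.323 CPM.

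The 4 pathway genes that did not pass the filter were Gpr119, Plaat5, Alox12 and Gpr18. Gpr18 is listed at 0 in all 16 pups. It lies within Ubac2 on the other strand, and of 524 named entries that lie within an entry of the opposite strand, 467 (89.1%) are at 0 in all pups, compared with 1460 of 18509 entries (7.89%) that do not lie within another. The 0 of such genes cannot be read as absence of the transcript. None of the 8 receptor and enzyme genes lies within another entry.

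**Figure D3:**
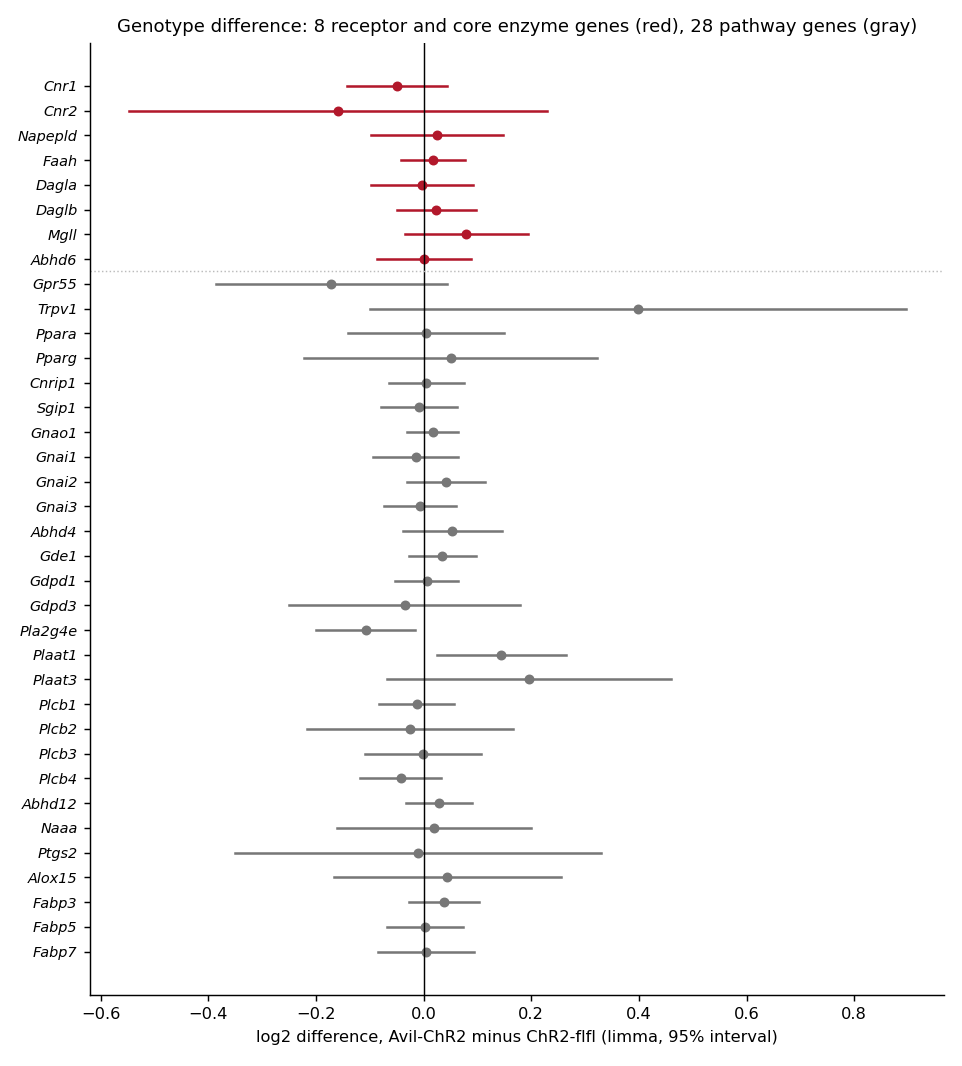
Log2 difference between Avil-ChR2 and ChR2-flfl with its 95% interval by limma for the 8 receptor and enzyme genes (red) and the 28 other pathway genes that passed the filter (gray). All 8 red intervals include 0, and of the gray ones those of Pla2g4e, at -0.11, and Plaat1, at 0.14, do not.

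Markers of neural, glial, blood and other cell types were compared between the genotypes as sums per type. The sum of 4 markers of GABAergic interneurons was 240 ± 11.2 CPM (SD) in ChR2-flfl and 249 ± 11.2 CPM in Avil-ChR2. That of 4 markers of Cck interneurons, which are known for high CB1 levels, was 67.6 ± 3.87 and 69.4 ± 3.19 CPM. Cck itself, at a mean of 52.1 CPM, made up most of this sum, so that the sum mainly follows Cck. Cck and Vip were higher and Sncg and Htr3a lower in Avil-ChR2, with Sncg at only 0.173 and 0.147 CPM. The astrocyte sum, led by Slc1a3, was 655 ± 56.8 and 686 ± 33.1 CPM. Of its 4 markers 3 were higher and 1 lower in Avil-ChR2, and Aqp4 had a log2 difference of 0.37 ± 0.26 (SE). The microglial sum, led by Csf1r, was 63.4 ± 9.26 and 65.5 ± 5.40 CPM, with P2ry12 listed at 0 in all pups, a gene that lies within Med12l on the other strand. The sum of 4 leukocyte markers, led by Ptprc, was 2.63 ± 0.476 and 2.81 ± 0.349 CPM. The neuron sum, led by Tubb3, was 3659 ± 104 and 3661 ± 95.7 CPM. That of excitatory cortical neurons was 1064 ± 28.6 and 1096 ± 24.3 CPM. The means of this last sum lie further apart than either SD, with Slc17a7 higher and 3 markers lower in Avil-ChR2. For striatal projection neurons, which carry much Cnr1 and would come with tissue from below the cortex, the sum of 6 markers was 104 ± 5.78 and 105 ± 10.1 CPM. The sums of oligodendrocyte lineage, led by Pdgfra, were 235 ± 24.4 and 239 ± 20.1 CPM, and those of endothelium, led by Cldn5, 117 ± 5.37 and 119 ± 6.68 CPM. The erythroid sum, led by Hbb-bs and with Alas2 listed at 0, was 177 ± 40.7 and 162 ± 25.4 CPM, and that of choroid plexus, led by Kl, 1.93 ± 0.343 and 2.26 ± 0.533 CPM. Of the sensory neuron markers, Avil was the one that set the sum, with 5.37 ± 0.507 and 44.2 ± 3.01 CPM. Since Avil also served to check the genotype labels, this sum follows the genotype. The other markers had means of 3.29 and 3.53 CPM for Prph and 0.880 and 0.814 CPM for Calca. Scn10a was at 0.082 and 0.137 CPM and Mrgprd at 0.0466 and 0.0411 CPM. Single markers with an unadjusted p under 0.05 besides Avil were Slc17a7 with a log2 difference of 0.11, Slc4a1 with -0.94 and Ttr with 1.33. Their adjusted p were at least 0.884 by limma. Slc4a1, at means of 0.558 CPM in ChR2-flfl and 0.335 CPM in Avil-ChR2, and Ttr, at 0.118 and 0.319 CPM, rest on few reads. The most abundant markers of the same 2 lists, Hbb-bs and Kl, had log2 differences of -0.080 and -0.060.

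Since the genotypes did not separate the genes, the spread between pups was compared from gene to gene. The deviations of the log2 values from the genotype means were correlated for all 28 pairs of the 8 genes over 16 pups, with p from 100000 permutations of the pups, a step that was chosen after the values had been seen. For 1 pair the correlation passed the adjustment over the 28 pairs. Mgll and Abhd6 varied together, with a Pearson r of 0.79 (permutation p = 0.00029, adjusted p = 0.00812), but the rank correlation did not pass, with a Spearman rho of 0.59 (permutation p = 0.0187, adjusted p = 0.262). Without the 2 pups farthest from the median of Mgll, r was 0.63. Within pups 26 to 33 r was 0.90 and within pups 35 to 42 it was 0.65. Among ChR2-flfl pups it was 0.84 and among Avil-ChR2 pups 0.64. Genes outside the 8 reached a higher r with Mgll, 0.94 for Ly6e and 0.93 for Ndrg4, so that 0.79 does not set this pair apart. How many of all gene pairs reach such an r was not counted. ChR2-flfl replicates 2 and 5 had the highest Abhd6 values, 35.6 and 35.5 CPM, and the highest Mgll values of their genotype, 104 and 105 CPM, and ChR2-flfl replicate 1 had the lowest of both, 28.7 and 78.6 CPM.

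Daglb and Abhd6 had the next highest r, 0.58 (permutation p = 0.0189, adjusted p = 0.265), and the highest rank correlation of all pairs, with a Spearman rho of 0.66 (permutation p = 0.0062, adjusted p = 0.174). The most negative was that of Cnr1 and Faah with r = -0.54 (permutation p = 0.0321, adjusted p = 0.30) and a Spearman rho of -0.50 (permutation p = 0.0491, adjusted p = 0.459). For this pair r was -0.29 within pups 26 to 33 and -0.88 within pups 35 to 42, and none of the pairs with Cnr1 passed the adjustment.

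The libraries also differed in how the log2 values of genes related to their genomic length, and this property moved with some of the 8 genes. The slope of a pup's log2 deviations on the log10 genomic span lay between -0.040 and 0.070. Its mean was 0.015 ± 0.034 (SD) in ChR2-flfl and -0.015 ± 0.024 in Avil-ChR2, with negative values in 3 of 8 and 6 of 8 pups, a difference that did not pass the test (exact two-sided permutation p = 0.0573). Its correlation with the deviations over the 16 pups was 0.54 for Cnr1, -0.58 for Dagla and -0.53 for Mgll, given here as a description. With the slope removed, r of Mgll and Abhd6 was 0.76 and that of Cnr1 and Faah -0.64. With the slope as a covariate, the log2 difference between genotypes came closer to 0 for Cnr1, with 0.0038 in place of -0.050, for Mgll, with 0.013 in place of 0.080, for Cnr2, with -0.088 in place of -0.16, and for Daglb, with 0.0051 in place of 0.024. It became larger for Dagla, with -0.061 in place of -0.0027, for Napepld, with 0.061 in place of 0.024, and for Abhd6, with -0.031 in place of 0.00043, and it was 0.018 in place of 0.017 for Faah. The smallest of these p was 0.179, for Dagla (adjusted p = 0.893 by limma). Whether the slope has a part in these values was not tested.

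**Figure D4:**
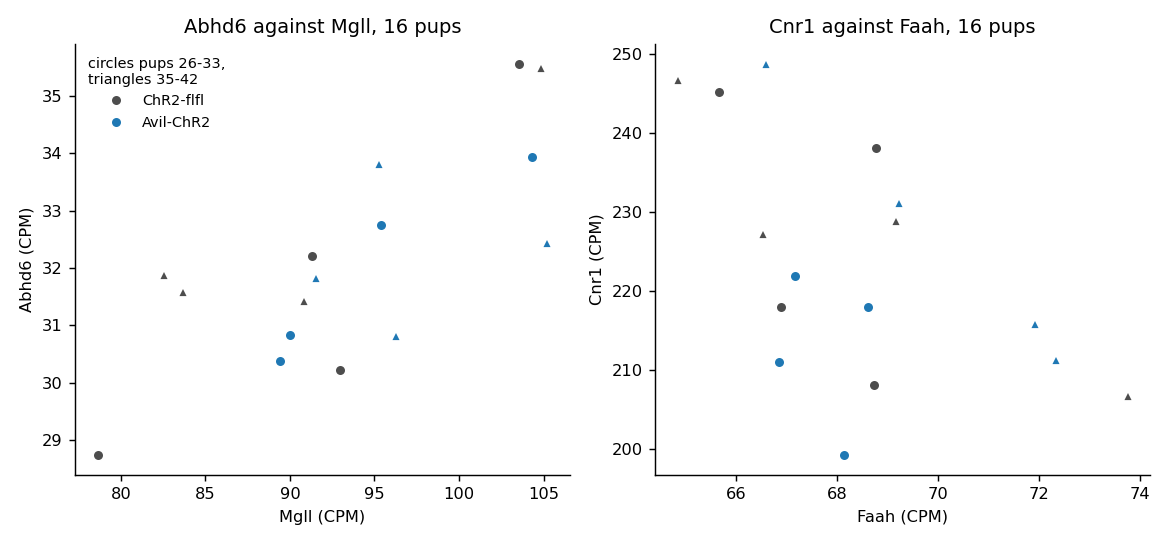
CPM of Abhd6 against Mgll (left) and of Cnr1 against Faah (right), 1 point per pup (ChR2-flfl gray, Avil-ChR2 blue, circles pups 26 to 33, triangles pups 35 to 42). For Mgll and Abhd6 r was 0.79 after removal of the genotype means, while the rank correlation did not pass the adjustment, and the pup with the most Mgll, Avil-ChR2 replicate 7 at 105 CPM, had 32.4 CPM of Abhd6. Likewise the r of -0.54 between Cnr1 and Faah did not pass the adjustment over the 28 pairs.

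The genes most alike in their variation were named for the main receptor, synthase and hydrolase, by Pearson r of the deviations over 16 pups among genes with a mean of at least 1 CPM. For Cnr1 they were Mturn with r = 0.89, Nkain3 with 0.88 and Zdbf2 with 0.88. For Dagla they were Dnal4 with r = 0.96, Nlgn2, which encodes the adhesion protein neuroligin 2 of inhibitory synapses, with 0.96, and Pitpnm1, a phosphatidylinositol transfer protein, with 0.95. For Mgll they were Ly6e with r = 0.94, Atp6v1g2, a subunit of the vacuolar proton pump, with 0.94, and Ndrg4 with 0.93. They are the highest among all genes compared, and all points share the same libraries. The 6 genes named for Dagla and Mgll span between 3602 and 38135 bp, and their correlation with the slope on genomic span lay between -0.68 and -0.43, of the same sign as that of Dagla and Mgll. Of the 3 named for Cnr1, Nkain3 and Zdbf2 span 661975 and 114219 bp and Mturn 22232 bp, and the correlation with the slope lay between 0.39 and 0.72, of the same sign as that of Cnr1. With the slope removed, r was between 0.927 and 0.945 for the genes named for Dagla, between 0.915 and 0.930 for those of Mgll and between 0.845 and 0.875 for those of Cnr1.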

How the data were processed

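Cortices of 16 pups at P7 were analyzed by RNAseq of stranded mRNA libraries with 75 cycles. The authors used SeqMan NGen 17 to align reads (minimum length 50 bp) to the mouse genome mm10 (GRCm38) and ArrayStar 17 to count them per gene, and deposited linear CPM scaled with TMM factors for each pup. How the counting treated reads of overlapping genes is not given in the sources used here. In the deposited CPM, values of up to 20000 reads were whole multiples of 1 read to within 0.05 reads in 100% of cases, which gave the reads per pup.

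CPM were log2 transformed without a pseudocount, and missing values or values below -5 were set to -5. Genes with at least 12 of 16 pups above -5 were kept. The genotype comparison used limma 3.58.1 (eBayes with an intensity trend; R 4.3.3) over all genes kept, with Benjamini-Hochberg adjustment, and for the 8 genes also by an exact two-sided permutation test over the 12870 splits of the pups. Nothing in the sources says which pups share a litter, so that P-values measure the spread between these pups. Lengths came from GENCODE M21 and promoters from RefSeq. The script was tested on simulated data. The 8 genes and the gene lists were chosen with earlier results of these data known. Genes were named by rule, namely the 8 genes, pathway genes with an unadjusted p under 0.05, the 3 with the largest difference at a mean of at least 1 CPM, the most abundant of each group, the 3 genes most alike to Cnr1, Dagla and Mgll, marker genes, Avil and Ddx3y. Mars, Xist, Tsix and the 4 pathway genes that did not pass the filter are named outside this rule, after their values were seen. They account for small counts and for the check of sex. Ubac2 and Med12l are also outside it, named as the entries around Gpr18 and P2ry12.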

Additional observations from a re-analysis of the deposited data

Results flagged for a closer look

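Abhd12 in ChR2-flfl replicate 1 was at 115.4 CPM and stood apart from the other 7 pups of its genotype, of which the next lowest was at 126.3 CPM. The gap was 0.557 of the range of the group, above the critical value of Dixon's test for 8 samples. It was the only such value among 40 groups (20 genes in 2 genotypes), and chance is expected to give about 1 in 20 groups.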

How the results depend on the processing

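None of the 8 genes was called at an adjusted p under 0.05 under any alternative in which it was tested. Cnr2 was not tested where genes with a mean log2 CPM below 0 were left out, since its own is below 0. The sign of the log2 difference changed for Cnr1 to 0.0038 and for Abhd6 to -0.031 with the slope on genomic span as a covariate. It changed in pups 35 to 42 for Cnr2 to 0.071, Napepld to -0.019 and Abhd6 to -0.016. In pups 26 to 33 the sign of Dagla changed, to 0.014. For Abhd6 it also changed to -0.0054 with the labelled sex as a covariate, but not with the sex of the Additional file, with 0.00043. With voom weights on the recovered reads, which was chosen after seeing the data, Abhd6 was at -0.0021. With 1 pup left out, the ranges were -0.076 to -0.030 for Cnr1, -0.24 to -0.059 for Cnr2 (the latter without ChR2-flfl replicate 4), -0.00038 to 0.048 for Napepld, 0.0072 to 0.034 for Faah, -0.020 to 0.024 for Dagla, 0.013 to 0.045 for Daglb, 0.050 to 0.11 for Mgll and -0.022 to 0.022 for Abhd6. The cause was not tested.

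The count of all genes at an adjusted p under 0.05 was 1 in place of 2 with median centring, the slope on genomic span, and in pups 26 to 33 or 35 to 42 alone, 3 with the run of pup numbers as a covariate, and 1 to 2 with 1 pup left out. At an unadjusted p pups 26 to 33 gave 672 genes and pups 35 to 42 gave 1159, in place of 1145, and there were 916 to 1565 with 1 pup left out. The unadjusted count among the 8 genes was 0 to 1 with 1 pup left out. That of the pathway list was 1 in place of 2 with the slope or in pups 35 to 42, and 1 to 3 with 1 pup left out. Replicate numbers did not pair the pups. Samples of the same number correlated over 0.1 in 3 of 8 pairs, 2 of 16 samples correlated best with their own number, and with the replicate block the count of all genes was 1.

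With the mean transcript length, the levels in ChR2-flfl were 55.3 CPM per kb for Cnr1, 50.9 for Mgll, 29.1 for Faah, 23.2 for Dagla, 17.3 for Abhd6 and 7.34 for Daglb. Planned count models (edgeR, DESeq2) were not run.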
